A study of Rattus norvegicus with 8 samples.

Results

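The circadian clock genes Clock, Arntl, Per1, Per2, Per3, Cry1, Cry2, Nr1d1, Nr1d2 and Dbp were followed in oligodendrocyte precursor cells (OPCs) of the rat, kept in culture. OPCs are the dividing glia from which myelin-forming cells arise. They were taken by symbol from a deposited table of 32883 genes, and all 10 were present once. The cells came from cerebral cortex of Sprague Dawley rats aged 1 to 2 days, and the RNA of 4 male and 4 female cultures was sequenced. All cultures had the same treatment, a mixed glial stage in DMEM with 20% serum and then 4 to 5 days of the collected precursors in Neurobasal medium with B27 (2%), PDGF and FGF, each at 10 ng/ml. No genotype, drug or time course was part of the design, so sex was the only factor. The labels state neither an hour of collection nor a synchronising step, so the libraries cannot be ordered along the day. Levels are the authors' FPKM (fragments scaled by transcript length and library size). Differences are male minus female in log2(FPKM + 1), given ± standard error, a scale that understates changes of low genes.

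The clock is a transcriptional loop that runs in nearly every mammalian cell. CLOCK and BMAL1 (the product of Arntl) bind E-boxes as a pair and turn on the Per, Cry and Nr1d genes. PER and CRY proteins then gather and block the pair, while the nuclear receptors REV-ERB alpha and beta (Nr1d1 and Nr1d2) repress Arntl through ROR response elements. DBP, an output factor driven by E-boxes, activates further genes through D-boxes, among them Per genes. In tissue with a running clock Arntl peaks roughly opposite to Nr1d1 and Dbp. In a population of cultured cells whose phases have drifted apart, these rhythms average out.

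The promoters of these genes were searched for the elements through which the loop is known to act, and the stretches with a match are shown here. RefSeq promoter windows of assembly GRCr8, from 250 bases before to 50 bases after a start site, were at hand for 9 of the 10 genes, in 11 windows. Arntl was matched by its present symbol Bmal1. No Cry1 window was used. Both strands were searched for the E-box (CACGTG), the variant E-box (CACGTT), the D-box (TTATGTAA or TTACGTAA), the cAMP response element (TGACGTCA) and the ROR response element (AAN followed by TAGGTCA or TGGGTCA). In the following stretches of 30 bases, 5′ to 3′ on the strand of the gene, capitals mark the match.
Arntl, ROR response element, 19 bases before the start: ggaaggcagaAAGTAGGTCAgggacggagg
Nr1d1, E-box, 191 bases before an inner start: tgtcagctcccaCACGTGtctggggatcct
Nr1d1, variant E-box, 174 bases before the outer start: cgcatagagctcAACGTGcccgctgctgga
Per2, D-box, 192 bases before the start: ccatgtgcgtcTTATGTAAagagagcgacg
Per2, variant E-box, 62 bases before the start: aacgcgcgcggtCACGTTttccactatgtg
Cry2, variant E-box, 212 bases before the start: acacatggtgggAACGTGagggggcggggc

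These stretches lie at chr1:176766299-176766328 (plus strand) for Arntl and at chr10:84229628-84229657 and chr10:84231969-84231998 (minus strand) for Nr1d1. Those of Per2 lie at chr9:99497167-99497196 and chr9:99497038-99497067 and that of Cry2 at chr3:98860632-98860661, all on the minus strand. By RefSeq, Arntl begins at 176766222 and Per2 ends at 99497069. The Arntl stretch and that with the variant E-box of Per2 thus lie inside their genes, and the starts named for both genes are inner ones. Among 33469 promoter windows of the table, 0.481% held the ROR response element, 1.01% a D-box, 6.42% the E-box, 4.83% the variant E-box and 1.83% the cAMP response element. The windows of Clock, Per1, Per3, Nr1d2 and Dbp held none of these letters. The 200 bases before the Per1 start lie at chr10:54304176-54304375, inside a gene that begins at 54299002. Those of Per3 (minus strand) reach 166778000 on chr5, inside a gene that ends at 166778243. The outer ends of Per1 and Per3 were thus not searched. A match is a description of sequence, and nothing in these data measures binding there.

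Male 1 and female 3 stood somewhat apart, with deviations from their group means that correlated over the tested genes (r = 0.24, a description). Differences of the clock genes without both are given after the main test. All 10 genes were detected in every library, at low to moderate levels. Their means over the 8 libraries ran from 2.23 ± 0.343 FPKM (SD) for Per2 to 12.5 ± 0.785 FPKM for Cry2. The median tested gene had a mean of 12.9 FPKM, so the mean of each clock gene was below it. Cry2 and Dbp (11.8 ± 2.32 FPKM) formed the upper pair and did not differ from each other beyond their spread, with Cry2 above Dbp in 4 of 8 libraries. The lowest Dbp value, 9.003 FPKM, was above the highest value of the next gene, Nr1d2, at 8.86 FPKM. Below this step came Nr1d2 (6.996 ± 0.966 FPKM), Per1 (6.70 ± 0.375 FPKM) and Cry1 (6.53 ± 1.21 FPKM), whose ranges overlapped. Arntl (5.65 ± 0.874 FPKM), Nr1d1 (5.296 ± 0.683 FPKM) and Clock (4.46 ± 0.748 FPKM) followed, again with overlap between neighbours. Per3 (3.13 ± 0.749 FPKM) was below Clock within each of the 8 libraries, and above Per2 in 7 of 8.

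**Figure D1:**
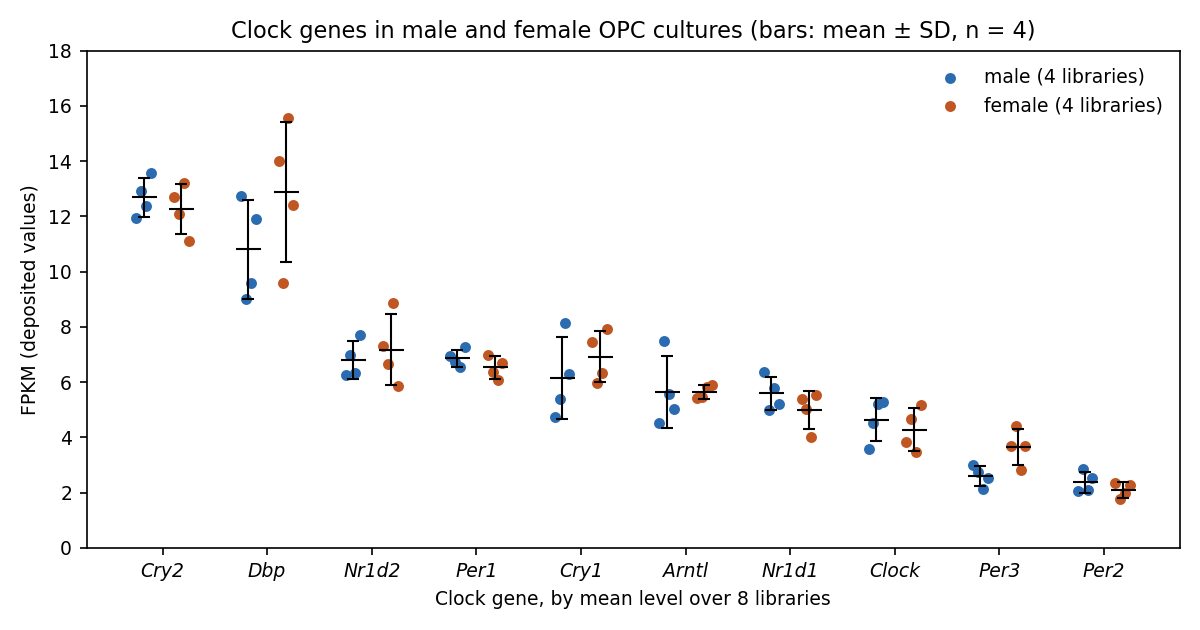
FPKM of each clock gene (vertical axis, linear from 0) in the 4 male (blue) and 4 female (orange) libraries, with genes ordered by mean level and black bars for mean ± SD. Cry2 and Dbp lie above the other 8 genes, the sexes overlap for each gene, and Per3 shows the widest separation of group means relative to level.

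None of the 10 clock genes differed between male and female cultures by the test used here. That test was limma on all 11263 genes averaging 1 FPKM or more, with Benjamini-Hochberg adjustment. Genes with an adjusted p under 0.05 are termed called. Of all tested genes 6.04% were called, 3.14% as higher in male and 2.89% as higher in female cultures. At an unadjusted p under 0.05, 1 of the 10 passed (Per3), against 21.2% of all tested genes. For 14.0% of all tested genes every library of one sex was above every library of the other, and this held for 0 of the 10 clock genes. Their log2 differences were positive for 5 and negative for 5, with a median of 0.013 against -0.0038 for all tested genes. The median size, regardless of sign, was 0.11 against 0.15. By an exact two-sided permutation test on each gene alone (70 assignments, smallest possible p = 0.0286), 0 of 10 were under 0.05. Without male 1 and female 3 limma again called 0 of the 10, and the signs of Arntl (0.078) and Nr1d2 (0.073) turned. The log2 difference without them was 0.0012 for Nr1d1, 0.030 for Per1, 0.11 for Cry2, -0.099 for Cry1 and -0.51 for Per3. It was 0.12 for Clock, 0.15 for Per2 and -0.21 for Dbp. These are bulk cultures, in which fewer cells of a type and less RNA per cell cannot be told apart. Nothing in the labels says that cultures of a sex came from separate litters, so p-values measure the spread between these samples only, which may be technical.

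**Figure D2:**
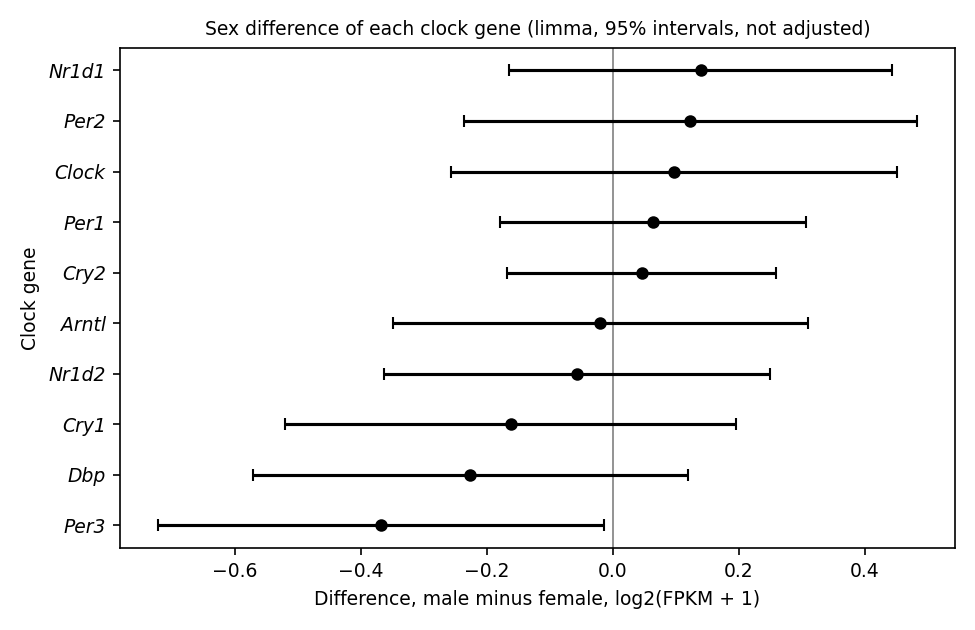
Difference of each clock gene between male and female cultures on the log2(FPKM + 1) scale (horizontal axis, points) with its unadjusted 95% limma interval (bars). The interval of Per3 is the only one that does not span 0 and runs from -0.72 to -0.015.

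Of the activators, Clock (ENSRNOG00000002175) encodes the histone acetyltransferase of the pair. It stood at 3.58, 4.52, 5.19 and 5.28 FPKM in male cultures 1 to 4 and at 3.84, 4.66, 3.45 and 5.16 FPKM in female cultures 1 to 4. The groups overlapped almost fully, and the lowest values of both were in male 1 and female 3, the 2 libraries with the greatest relative depth. The log2 difference was 0.097 ± 0.161 (95% interval -0.26 to 0.45, limma adjusted p = 0.788). Arntl (ENSRNOG00000014448), whose product BMAL1 is its indispensable partner, stood at 4.51, 7.51, 5.59 and 5.01 FPKM in male cultures 1 to 4. In female cultures 1 to 4 it stood at 5.42, 5.46, 5.84 and 5.90 FPKM. The female cultures were close together, while male 1 held the lowest and male 2 the highest of the 8 values. Group means were almost equal, at 5.65 ± 1.31 against 5.66 ± 0.249 FPKM (SD, n = 4), and the log2 difference was -0.020 ± 0.15 (95% interval -0.35 to 0.31, limma adjusted p = 0.960). The paralogs that can stand in for these genes were scarcely detected. Npas2, which can replace Clock in brain, was between 0.134 and 0.459 FPKM in all libraries, and Arntl2 was listed at 0 in 7 libraries and at 0.299 FPKM in female 4.

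Among the period genes, Per1 was the steadiest member and Per3 the least steady. PER proteins carry the repressive complex into the nucleus, and Per1 and Per2 also respond acutely to cAMP and glucocorticoid signals. Per1 (ENSRNOG00000007387) stood at 6.94, 6.74, 6.53 and 7.26 FPKM in male cultures 1 to 4 and at 6.99, 6.35, 6.08 and 6.70 FPKM in female cultures 1 to 4. Its highest value was 1.19 times its lowest, and the log2 difference was 0.064 ± 0.11 (95% interval -0.18 to 0.31, limma adjusted p = 0.799). Per2 (ENSRNOG00000020254) stood at 2.04, 2.85, 2.10 and 2.51 FPKM in male cultures 1 to 4 and at 2.36, 1.76, 1.98 and 2.29 FPKM in female cultures 1 to 4. Male 2, which was highest for Arntl, was highest here too, and the groups overlapped (0.12 ± 0.16, 95% interval -0.24 to 0.48, limma adjusted p = 0.725).

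Per3 (ENSRNOG00000018413), a paralog that is less essential for rhythm than Per1 and Per2, had the largest difference of the set. It stood at 3.00, 2.74, 2.11 and 2.54 FPKM in male cultures 1 to 4 and at 3.70, 4.41, 2.83 and 3.69 FPKM in female cultures 1 to 4. Of the female cultures 3 were above all male ones, and female 3 fell between male 2 and male 1. Mean levels were 2.60 ± 0.373 against 3.66 ± 0.648 FPKM (SD, n = 4), 1.41 times as high in female cultures. The log2 difference was -0.37 ± 0.16 (95% interval -0.72 to -0.015), with an unadjusted p of 0.0426 and a limma adjusted p of 0.218, so it was not called. The exact permutation p on Per3 alone was 0.0571. With a pseudocount of 0.1, which compresses low values less, the difference was -0.47 ± 0.21 (limma adjusted p = 0.219). With any 1 library left out, its limma adjusted p ran from 0.129 to 0.418.

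Cryptochromes are the direct inhibitors of the CLOCK and BMAL1 pair. Cry1 (ENSRNOG00000006622) stood at 4.74, 5.40, 8.15 and 6.28 FPKM in male cultures 1 to 4 and at 7.44, 5.96, 6.32 and 7.92 FPKM in female cultures 1 to 4. Male 1 and male 2 were below all female cultures while male 3 was above them, so the groups overlapped (-0.16 ± 0.16, 95% interval -0.52 to 0.20, limma adjusted p = 0.625). Cry2 (ENSRNOG00000007478), which had the highest mean over all 8 libraries but a lower mean than Dbp in the female cultures, stood at 11.9, 12.9, 12.4 and 13.6 FPKM in male cultures 1 to 4 and at 12.7, 12.1, 13.2 and 11.1 FPKM in female cultures 1 to 4. Male 4 held the highest and female 4 the lowest value, and the groups overlapped. The coefficient of variation over 8 libraries was 6.29%, the lowest of the set after Per1 (5.60%). Its log2 difference was 0.046 ± 0.097 (95% interval -0.17 to 0.26, limma adjusted p = 0.842).

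The REV-ERB genes carry the second, stabilising arm of the loop. Nr1d1 (ENSRNOG00000009329) stood at 6.35, 5.001, 5.80 and 5.22 FPKM in male cultures 1 to 4 and at 5.41, 5.04, 4.01 and 5.54 FPKM in female cultures 1 to 4. Male 1 was highest and female 3 lowest, and the remaining 6 libraries overlapped (0.14 ± 0.14, 95% interval -0.16 to 0.44, limma adjusted p = 0.622). The difference was 0.055 without female 3, 0.085 without male 1 and 0.0012 without both. Nr1d1 overlaps the thyroid hormone receptor gene Thra in the RefSeq gene table, and whether counting used strand is not stated. If it did not, reads from the shared part cannot be assigned to one of the pair. Clock, Per2, Cry1 and Cry2 also overlap other, unnamed genes in that table, and the same limit holds for their values. Thra itself was called as higher in female cultures (101 against 131 FPKM, log2 difference -0.37, limma adjusted p = 0.0282), the opposite sign to Nr1d1. Nr1d2 (ENSRNOG00000046912) stood at 6.24, 6.99, 6.32 and 7.71 FPKM in male cultures 1 to 4 and at 7.32, 6.66, 8.86 and 5.86 FPKM in female cultures 1 to 4. Female 3 was the highest and female 4 the lowest of all 8 libraries (-0.057 ± 0.14, 95% interval -0.36 to 0.25, limma adjusted p = 0.865).

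Dbp (ENSRNOG00000021027), the output factor with the D-box as its target, is among the most strongly rhythmic transcripts of many tissues. It stood at 12.7, 9.003, 9.61 and 11.9 FPKM in male cultures 1 to 4 and at 14.0, 9.57, 15.6 and 12.4 FPKM in female cultures 1 to 4. Female 3 and female 1 were above all male cultures, and female 2 was near the lowest male values. Means were 10.8 ± 1.79 against 12.9 ± 2.55 FPKM (SD, n = 4), and the log2 difference was -0.23 ± 0.16 (95% interval -0.57 to 0.12, limma adjusted p = 0.458). Its highest value was 1.73 times its lowest.

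Spread within a sex was next compared with that of genes of similar level. The SD of log2(FPKM + 1) within sexes ran from 0.067 for Per1 to 0.25 for Dbp among the clock genes, with a median of 0.18. The 5326 tested genes with means between 2 and 16 FPKM, a band that holds all 10 members, had a median of 0.22 and quartiles of 0.17 and 0.31. Only Dbp and Cry1 (0.24) were above that median, and no clock gene was above the upper quartile. Female 1 was above the mean of its sex for 8 of the 10 genes and female 2 below it for 7, and no library was above or below for all 10. Male 4 was highest for 3 genes (Clock, Per1 and Cry2), and female 3 was highest for Nr1d2 and Dbp and lowest for Clock, Per1 and Nr1d1.

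**Figure D3:**
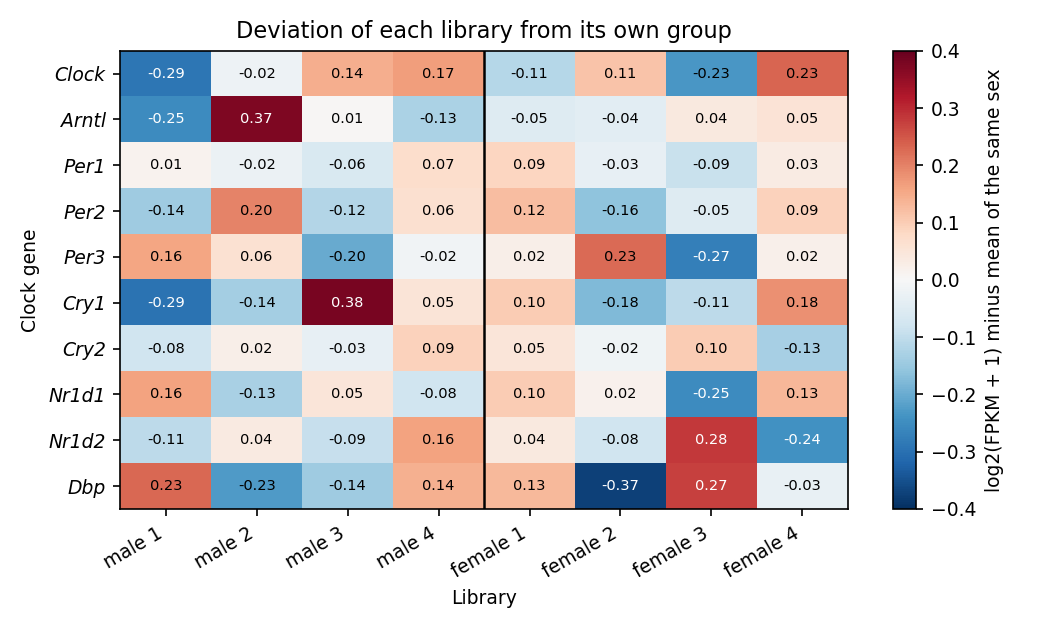
Deviation of each clock gene (rows) in each library (columns) from the mean of the same sex on the log2(FPKM + 1) scale, red for above and blue for below. The largest deviations are Cry1 in male 3 (0.38), Arntl in male 2 (0.37) and Dbp in female 2 (-0.37), and no column is of one colour.

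For 6 pairs of clock genes that are coupled in the loop, values were correlated over the 8 libraries on the log2(FPKM + 1) scale. None passed after adjustment over the 6 by the exact permutation test of all pairings. Nr1d1 and Nr1d2 had the strongest relation, an inverse one, with Pearson r = -0.82 (exact permutation p = 0.0161, adjusted 0.0964) and Spearman rho = -0.74 (exact permutation p = 0.0458, adjusted 0.275). With the mean of each sex removed r was -0.84. Without female 3 and male 1, the libraries farthest from the median of Nr1d1, r was -0.50 (exact permutation p = 0.318). The relation was thus weaker without them, but fewer libraries also give the test less power. Each sex has 4 libraries, too few for a value within it. Arntl was inversely related to Nr1d1 (r = -0.46, rho = -0.48, exact permutation p = 0.237 and 0.243) and to Dbp (r = -0.41, rho = -0.31, exact permutation p = 0.332 and 0.462), neither past the threshold. Without male 2 and male 1, the extremes of Arntl, these values of r were -0.24 and 0.25. Over all 8 libraries with the mean of each sex removed, both were -0.49. The other pairs were Arntl with Per2 (r = 0.52, rho = 0.19, exact permutation p = 0.175 and 0.665), Nr1d1 with Dbp (r = -0.27, rho = 0.095, exact permutation p = 0.543 and 0.840) and Dbp with Per3 (r = 0.13, rho = 0.21, exact permutation p = 0.762 and 0.619). Without the extreme pair of libraries these values of r were -0.41, 0.30 and 0.17. Over all 8 libraries with the mean of each sex removed, they were 0.61, -0.072 and -0.39, so the sign for Dbp with Per3 turned.

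**Figure D4:**
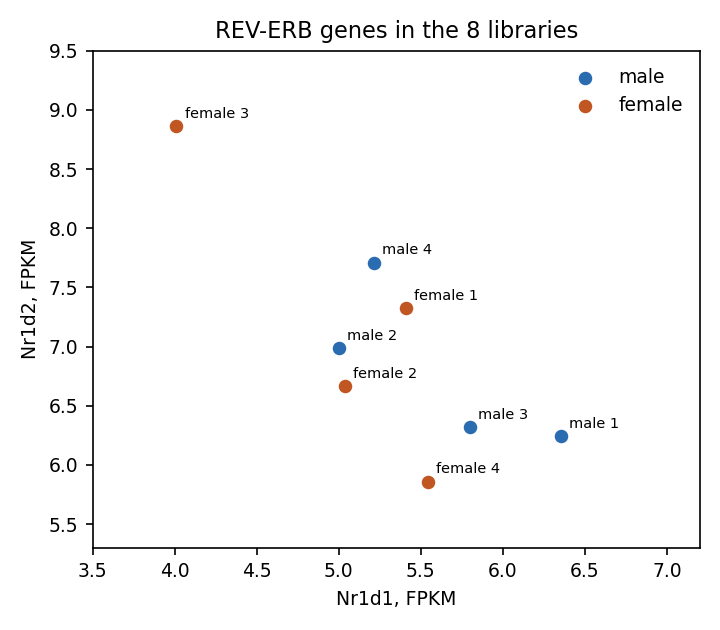
FPKM of Nr1d1 (horizontal axis) against Nr1d2 (vertical axis) in the 8 libraries, blue for male and orange for female, each point named. Female 3 (4.01 and 8.86 FPKM) and male 1 (6.35 and 6.24 FPKM) form the ends, and the other 6 libraries lie between 5.001 and 5.80 FPKM of Nr1d1.

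The REV-ERB promoters are printed for this pair. Each stretch holds the 200 bases before a start site at the outer end of the gene in the RefSeq table, 5′ to 3′ on the strand of the gene, and capitals mark the variant E-box of Nr1d1 read on the other strand. The Nr1d1 stretch lies at chr10:84231813-84232012 (minus strand) and that of Nr1d2 at chr15:9954834-9955033 (plus strand) of GRCr8.
Nr1d1: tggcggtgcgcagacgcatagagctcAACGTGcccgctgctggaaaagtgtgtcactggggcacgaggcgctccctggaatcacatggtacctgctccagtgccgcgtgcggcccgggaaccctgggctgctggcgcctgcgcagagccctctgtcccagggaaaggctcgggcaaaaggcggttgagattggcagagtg
Nr1d2: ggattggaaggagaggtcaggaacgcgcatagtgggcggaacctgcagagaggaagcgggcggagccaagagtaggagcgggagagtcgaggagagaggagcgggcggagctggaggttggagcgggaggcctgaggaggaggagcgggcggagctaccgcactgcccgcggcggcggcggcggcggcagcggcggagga
Both are rich in G and C, at 65.5% for Nr1d1 and 71% for Nr1d2.

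Within a library, transcript levels of repressor and output genes were set against Arntl. This is a description only, on a scale that depends on the pseudocount of 1. The log2 ratio of (FPKM + 1) values, averaged over the 8 libraries, was 0.94 ± 0.37 (SD) for Dbp, 0.27 ± 0.23 for Nr1d2, 0.22 ± 0.21 for Per1, -0.077 ± 0.29 for Nr1d1, -0.70 ± 0.33 for Per3 and -1.04 ± 0.16 for Per2. For Dbp the ratio was 1.32, 0.23, 0.69 and 1.10 in male cultures 1 to 4 and 1.22, 0.71, 1.28 and 0.96 in female cultures 1 to 4. Male 2 had the lowest ratio for 5 of the 6 genes, Per2 being the exception. All 6 ratios share Arntl as denominator and male 2 had the highest Arntl value, so this count follows in part from that value. It says nothing of the loop.

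The genes whose values over the 8 libraries, with the mean of each sex removed, most resembled those of Per3, Arntl and Dbp were sought among 8383 other genes of at least 5 FPKM. For Per3 they were Pms2 (r = 0.96), Slc39a13 (r = 0.95) and Tlk2 (r = 0.92). For Arntl they were Hnrnpll (r = 0.99), Mgrn1 (r = 0.98) and Golga2 (r = 0.97), and for Dbp P3h4 (r = 0.98), Plekhm2 (r = 0.98) and Ndufa3 (r = 0.95). With 8 libraries and so many candidates, high values of r are a description of these libraries only.

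Around the 10 genes, 44 further genes of the clock pathway were listed by role, of which 41 could be tested. Of these 2 were called as higher in male and 1 as higher in female cultures, 7.32% in all beside 6.04% of all tested genes. Their median log2 difference was 0.061 against -0.0038 for all tested genes. The ROR receptors that could be tested, activators of Arntl at the elements that REV-ERBs bind, were low. Rora stood at 1.56 ± 0.417 against 1.79 ± 0.273 FPKM (log2 difference -0.13 ± 0.19, limma adjusted p = 0.755) and Rorb at 1.42 against 1.29 FPKM. Among the relatives of Dbp, Tef was the most abundant at 32.5 ± 2.46 against 31.1 ± 2.97 FPKM. Hlf, another relative, stood at 4.25 ± 0.888 against 2.88 ± 1.098 FPKM (0.46 ± 0.22, limma adjusted p = 0.263), and Nfil3, which represses at the same D-boxes, at 9.23 against 8.72 FPKM. Of the E-box repressors, Ciart, itself a strongly clock-driven gene, stood at 3.35, 1.44, 0.623 and 1.15 FPKM in male cultures 1 to 4 and at 2.64, 2.62, 3.25 and 2.69 FPKM in female cultures 1 to 4. Male 1 was above all female cultures and the other 3 male cultures were below them. The log2 difference of Ciart was -0.62 ± 0.27 (limma adjusted p = 0.215), and Ciart was called in 1 of 17 alternative analyses. That was the fit without male 1 (-0.89, limma adjusted p = 0.033), while without male 1 and female 3 together the adjusted p was 0.0679, and it was up to 0.430 with another single library left out. Bhlhe40 (1.10 against 1.21 FPKM) and Bhlhe41 (4.39 against 3.62 FPKM) were not called.

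Among proteins that set the stability of PER and CRY, none of 8 kinase genes and none of 5 ubiquitin pathway genes was called by limma. Under an unadjusted limma p of 0.05 were 2 and 0 of them, against 21.2% of all tested genes. The casein kinase genes Csnk1d (57.8 against 63.9 FPKM) and Csnk1e (65.3 against 65.1 FPKM), whose products phosphorylate PER, were several times as abundant as any clock gene. Gsk3b had the smallest p of the kinases (51.3 ± 11.4 against 65.4 ± 4.70 FPKM, log2 difference -0.37 ± 0.14, limma adjusted p = 0.170). Fbxw11, a subunit of the ligase that marks PER for degradation, had the smallest p of the ubiquitin group (50.4 ± 1.60 against 53.9 ± 5.54 FPKM, log2 difference -0.091 ± 0.082, limma adjusted p = 0.579).

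Of 9 genes of PER and CLOCK partners and corepressors, 1 was called (11.1%, beside 6.04% of all tested genes). At an unadjusted limma p under 0.05, 2 of the 9 passed, against 21.2% of all tested genes. Timeless, known in mammals mainly for its part in replication fork protection, stood at 14.0, 14.9, 14.2 and 16.1 FPKM in male cultures 1 to 4 and at 9.34, 11.8, 11.1 and 7.65 FPKM in female cultures 1 to 4. All male cultures were above all female ones, with a log2 difference of 0.54 ± 0.13 (limma adjusted p = 0.0358). Timeless was called in 9 of 18 alternative analyses, and each of male 2, male 3, male 4, female 1 and female 4, when left out, ended the call (limma adjusted p up to 0.102). With 1 library left out its log2 difference ran from 0.43 to 0.62, and fewer libraries also give the test less power. Of 8 markers of dividing cells, 7 were also called as higher in male cultures, beside 3.14% of all tested genes. The summed level of the 8 was 950 to 1003 FPKM in male and 625 to 808 FPKM in female cultures. No marker of that list was at 0, and their part in the Timeless result was not tested. Of 3 output genes limma called 0. Against 21.2% of all tested genes, 1 of the 3 had an unadjusted limma p under 0.05. This was Wee1, a cell cycle kinase gene with clock-driven expression in liver, which stood at 20.3 ± 3.10 against 15.4 ± 1.10 FPKM (0.37 ± 0.11, limma adjusted p = 0.0869). Wee1 was called in 2 of 18 alternative analyses, without male 1 (0.45, limma adjusted p = 0.0357) and without male 1 and female 3 together (0.48, adjusted p = 0.0367). With another single library left out its adjusted p was up to 0.203.

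Of 8 genes that respond to cAMP or glucocorticoid signals, as Per1 does, 1 was called in each direction. That is 25% of a short list, beside 6.04% of all tested genes. At an unadjusted limma p under 0.05, 4 of the 8 passed, against 21.2% of all tested genes. Fkbp5, a glucocorticoid-induced immunophilin gene, stood at 24.9, 33.3, 26.3 and 33.5 FPKM in male cultures 1 to 4 and at 20.5, 22.3, 23.2 and 16.8 FPKM in female cultures 1 to 4 (log2 difference 0.49 ± 0.13, limma adjusted p = 0.0498). Sgk1, a kinase gene induced by the same hormones, went the other way, at 15.8, 13.1, 13.5 and 12.6 FPKM in male cultures 1 to 4 and 19.0, 18.4, 17.7 and 19.0 FPKM in female cultures 1 to 4 (-0.41 ± 0.09, limma adjusted p = 0.0295). Neither overlapped between the sexes, which held for 14.0% of all tested genes. Sgk1 was called in 11 of 18 alternative analyses (limma adjusted p up to 0.0909) and Fkbp5 in 7 of 18 (up to 0.144). Each of male 2, male 3, male 4 and female 1, female 2 and female 4, when left out, ended both calls. With 1 library left out the log2 difference ran from -0.47 to -0.37 for Sgk1 and from 0.40 to 0.56 for Fkbp5. Fewer libraries also give the test less power.

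**Figure D5:**
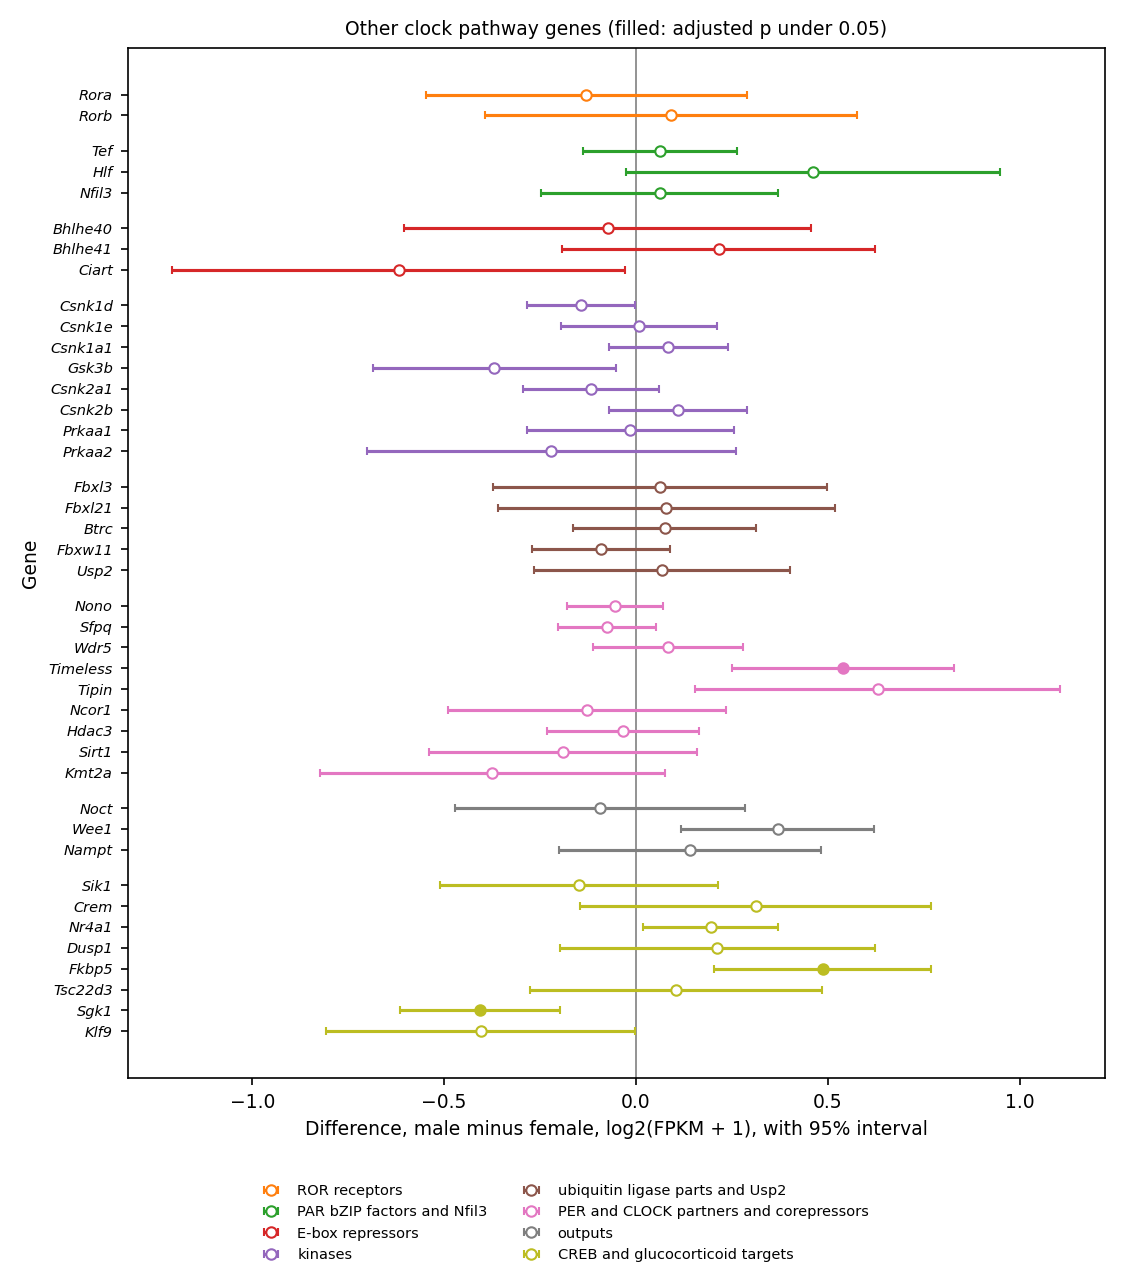
Log2 difference, male minus female (horizontal axis), of the 41 other clock pathway genes with unadjusted 95% limma intervals, coloured by role, with filled points for an adjusted p under 0.05. Timeless and Fkbp5 are filled on the male side and Sgk1 on the female side, and all other points are open.

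Marker genes of several cell types were also read, and bulk levels do not tell which cells transcribed them. Of all tested genes 6.04% were called, 3.14% as higher in male and 2.89% as higher in female cultures. An unadjusted limma p under 0.05 was found for 21.2%. OPC markers were abundant in all libraries (summed level of 7 matched genes 2018 to 2134 FPKM in male and 2430 to 2683 FPKM in female cultures), and 3 of 7 were called as higher in female ones. These were Pdgfra, Sox10 (193 against 245 FPKM) and Gpr17 (43.1 against 143 FPKM), a receptor gene of committed precursors. Markers of maturing oligodendrocytes summed to 542 to 631 FPKM in male and 667 to 802 FPKM in female cultures, with 2 of 6 called as higher in female ones. Microglial markers summed to 34.1 to 48.9 FPKM in male and 142 to 176 FPKM in female cultures, with 8 of 9 called and Cx3cr1 listed at 0 in male 4. Neuronal markers summed to 339 to 378 against 313 to 437 FPKM, with 4 of 9 called as higher in male cultures and none at 0. Map2, Dcx and Tubb3, none of them called, had the highest levels of that list and weigh most in the sums. The median log2 difference of the 9 was 0.62. Astrocyte markers summed to 96.9 to 122 against 85.1 to 103 FPKM, with 0 of 4 tested genes called by limma (1 at an unadjusted p under 0.05). Gfap, Aqp4 and Aldh1l1 were listed at 0 in female 3, and Aldh1l1 also in female 1. Aqp4 and Aldh1l1 were too low to be tested. The part of these cell types in the Per3, Fkbp5 and Sgk1 values was not tested. Depth relative to male 1, read from the steps between low FPKM values, was 0.981 in female 3 and between 0.303 and 0.769 in the other 6 libraries. The absolute depth is unknown, so no counting interval can be given.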

How the data were processed

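RNA was sequenced from 8 libraries, 4 male and 4 female, grouped and numbered by their titles. The authors deposited 1 FPKM value per gene and library, per the file headers. Per the submitters' processing notes, Trimmomatic (a read trimmer) and FastQC (a quality report) were used. Neither the aligner nor the FPKM program, build, annotation or strand use is given in the sources used here. The clock genes and all lists were chosen with earlier results of these data known.

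Values were taken as log2(FPKM + 1). The 11263 genes averaging 1 FPKM or more, which include all 10 clock genes, were fitted with limma 3.58.1 in R 4.3.3 (trend and robust moderation, Benjamini-Hochberg over all tested genes, threshold 0.05). The function was tested on simulated data. The permutation test between the sexes used scipy 1.17.1. The exact test of all pairings was computed directly in Python 3.11.15. Markers were read by list, with the defining gene of each. Named pathway genes are every called gene of a list or, where none was called, the gene with the smallest p. Other genes of short lists are named for their level. Thra, Csnk1d, Csnk1e, Sox10, Gpr17, Map2, Dcx and Tubb3 were named after their values were seen. Pairing by replicate number was checked by the correlation of deviations from group means. Alternatives covered pseudocounts, filters, scaling, the replicate block, relative depth, plain limma and libraries left out. A result for 1 listed gene is not reported here.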

Additional observations from a re-analysis of the deposited data

How the results depend on the processing

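Of the 10 clock genes 0 were called by limma in either direction under each of the 18 alternatives run (17 for Clock, Per2 and Per3, which a filter at 5 FPKM removed), and 8 kept their sign throughout. Arntl changed sign with quantile normalization (0.0097), with relative depth as a covariate (0.012) and, leaving out the pair, without male 1 and female 3 together (0.078), and ran from -0.14 to 0.065 with 1 library left out (above 0 without male 1 or male 4). Nr1d2 changed sign without male 1 and female 3 together (0.073) and ran from -0.14 to 0.038 with 1 library left out (above 0 without female 3). The other pathway genes called as higher in male cultures numbered 1 with a pseudocount of 0.1 and 0 with no filter, with depth relative to male 1 as a covariate, and with neither trend nor robust moderation. With 1 library left out they numbered 0 to 3 as higher in male and 0 to 2 as higher in female cultures, and all called genes 149 to 450 and 149 to 353. The counts of all called genes fell by over 1.5 times without male 2, male 3, male 4, female 1 or female 4. With the replicate number as a block they were 0 and 0, and all called genes were 208 and 189, against 354 and 326 without it. Deviations of same-numbered libraries were at most weakly correlated (r = -0.085, 0.077, -0.064 and 0.036). The labels do not say whether a number stands for a shared preparation, and these values cannot settle it. Male 1 correlated best with female 3 (r = 0.24). With neither trend nor robust moderation all called genes were 210 and 214. The mean log2 ratio of Per2 to Arntl was -1.30 with a pseudocount of 0.1 and -0.56 with one of 5, by construction of the scale. With a pseudocount of 5 the ratios of Per3 (-0.39), Nr1d2 (0.17), Per1 (0.14) and Nr1d1 (-0.048) also shrank by over 1.5 times. The cause of the other changes was not tested. The absolute depth is unknown, so the counting error of each gene could not be given.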
